A study of Homo sapiens with 36 samples.

Results

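HCT-116 cells derive from a human colorectal carcinoma. The libraries described here ask how HCT-116 cells that lack FBXW7 (FBXW7-/-, KO) differed from wild-type cells (WT) while both were exposed to oxaliplatin (OXPT), a platinum drug that crosslinks DNA. The comparison rests on 6 of the 36 RNA-seq libraries of the series, the 3 titled as KO with control esiRNA and OXPT (KO esiCT OXPT) and the 3 titled as WT with control RNA and OXPT (WT OXPT). They were chosen by title and not by any measured value, and genes of chromosome Y were left out. In both groups, esiRNA was given for 48 h and OXPT at 50 µM for 24 h. The study's text places OXPT in the last 24 h of the 48 h, while a figure legend places it after them. The KO cells carried esiCT in every entry of their labels. For the WT libraries the title gives control RNA and the treatment entry esiHDAC4, so that their esiRNA is not settled and the genotypes may also differ in the esiRNA. The groups set beside them were KO esiCT and WT cells without OXPT (KO esiCT UNT and WT UNT), KO with esiHDAC4 and OXPT, and KO with OXPT and the class IIa HDAC degrader #11, for which the entries give 1 µM or 10 µM. Each of these groups held 3 libraries. WT and KO cells were obtained from the same supplier, the KO cells carry a deletion in FBXW7, and the number of clones behind them is not given in the sources used here, so differences that the KO line may carry beside the loss of FBXW7 cannot be told apart from it.

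FBXW7 is the F-box protein by which an SCF (SKP1-CUL1-F-box) ubiquitin ligase recognises substrates that carry a phosphorylated degron, and it marks them for the proteasome. Its known substrates include MYC, cyclin E (encoded by CCNE1), JUN, MCL1 and Notch receptors, and it is often mutated in colorectal cancer. Since the ligase acts on proteins, mRNA levels show what lies downstream of it or differs between the cell lines, and not the turnover of the substrates. The libraries were made from polyA RNA and deposited as read counts per gene. Levels are given as CPM, that is, counts scaled to the TMM-normalized size of each library, with differences as log2 fold changes of KO over WT, and a gene is called when its Benjamini-Hochberg adjusted p in edgeR's quasi-likelihood test lay under 0.05 across all genes tested and its fold change exceeded 1.5. The labels do not say whether replicates came from separate cultures. The p-values therefore measure the spread between libraries of a group, estimated over all 24 libraries of the model (8 groups of 3).

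The 6 libraries held 10725966 to 19582737 counts on genes. In KO esiCT OXPT replicate 3, 22.3% of the reads were unmapped against a lowest value of 9.06% among the 6 libraries, and its TMM factor was 0.789. Replicate 3 of both groups stood apart from replicates 1 and 2, with a chi-square per degree of freedom of 110 to 152 against 16.5 to 24.4 between replicates 1 and 2. Replicate 3 of the 2 groups deviated together, with a correlation of 0.654 across genes between their deviations from the group means. MDM2, a p53 target that encodes the ligase of p53, illustrates this: it gave 421, 468 and 177 CPM in KO and 366, 353 and 54.5 CPM in WT, lowest in replicate 3 of each group. The epithelial identity of the line was visible in 9 of 10 epithelial markers, the tenth (VIL1) staying under 1 CPM, and the summed level of the 10 ranged from 9924 to 22550 CPM in KO and from 12310 to 18530 CPM in WT. Of 17 markers of blood, endothelial, fibroblast, muscle and other cells, 15 stayed under 1 CPM in all 6 libraries and 2 of these (COL1A2 and DCN) were at 0. COL1A1 and ACTA2 made up most of their sum of 41.4 to 86.7 CPM in KO and 52.1 to 57.7 CPM in WT.

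FBXW7 itself (ENSG00000109670.17, chromosome 4, 152320544 to 152536092 of GRCh38) gave 34.0, 44.7 and 49.1 CPM in KO and 42.3, 33.9 and 13.5 CPM in WT under OXPT. The groups overlapped, with the lowest value in a WT library, and the log2 fold change was 0.51 ± 0.30 (SE, adjusted p = 0.977). A deletion inside the gene need not change a count taken over the whole gene, so this count does not check the genotype. HDAC4 (ENSG00000068024.18, chromosome 2, 239048168 to 239401654), the class IIa histone deacetylase that the study examines, gave 6.28, 5.71 and 7.5 CPM in KO and 8.49, 8.44 and 10.0 CPM in WT. All 3 KO libraries were below all WT libraries, and the log2 fold change of -0.47 ± 0.24 (SE, adjusted p = 0.957) did not pass the test. In KO cells with esiHDAC4 and OXPT the level was 4.13, 3.33 and 4.19 CPM. The HDAC4 level was not used to settle the esiRNA of the WT libraries. HDAC5 and HDAC7, which belong to the same class, had log2 fold changes of -0.26 (adjusted p = 1.00) and -0.03 (adjusted p = 1.00), the latter taking either sign among the settings tried, and HDAC9 did not reach the count minimum.

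Under OXPT, 16 genes distinguished KO from WT among 12353 tested, 0.13% of them. SPATC1L was the only gene called higher in KO (0.0081%), and 15 genes were called lower (0.121%). Among the lower genes were 3 encoding transcription factors (EHF, MYC and MSX2), 5 encoding proteins of the cell surface or transporters (DPEP1, PODXL2, HTR7, SLC2A3 and SLC43A3) and 5 others (VASP, ANXA10, APOBEC3G, KRT13 and FABP6). This grouping was made after the calls and serves for order only. Their fold changes ran from 2.39-fold for MYC to 46.7-fold for ANXA10. Before adjustment, 666 genes had p under 0.05, of which 319 were higher and 347 lower in KO, and the tested genes had a median log2 fold change of 0.05. In all 16 called genes the 3 KO libraries did not overlap with the 3 WT libraries. Such a separation was found for 790 of all genes tested, or 6.4%.

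**Figure D1:**
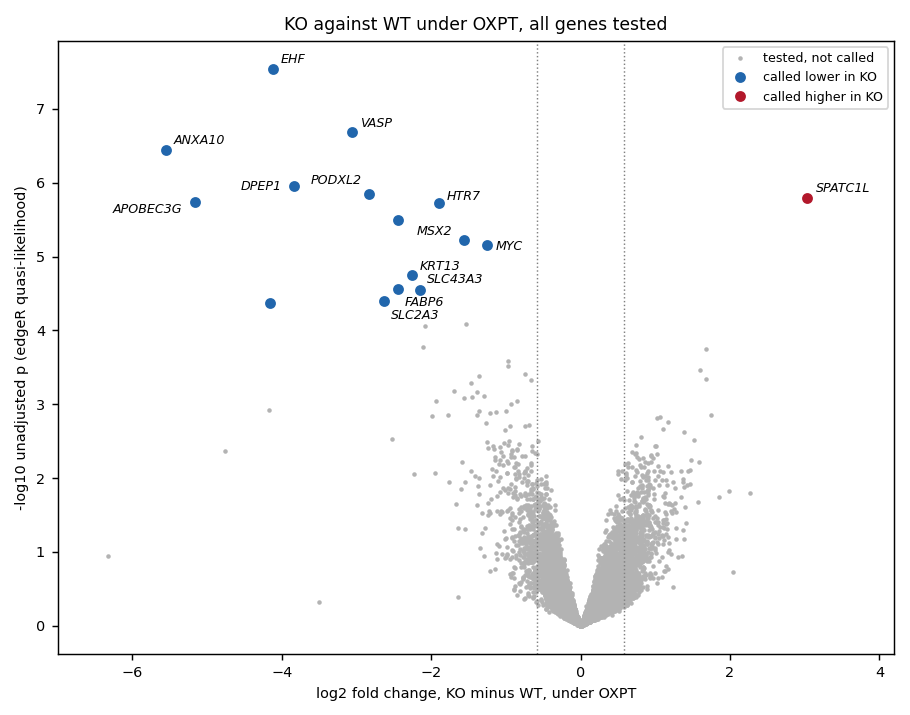
Each point is 1 of the 12353 genes tested, with the log2 fold change of KO over WT under OXPT on the horizontal axis and the -log10 of the unadjusted p of edgeR's quasi-likelihood test on the vertical axis. Dotted lines mark a fold change of 1.5. The 15 genes called lower in KO lie at the upper left and SPATC1L is the only gene called higher, while the bulk of genes lies around 0.

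Of the transcription factors, EHF had the smallest p of all genes. EHF (ENSG00000135373.13, chromosome 11, 34621093 to 34663288) encodes an ETS factor of epithelial cells. Its level was 1.62, 2.31 and 1.19 CPM in the KO libraries and 40.7, 39.9 and 9.72 CPM in the WT libraries, which makes 1.71 ± 0.566 against 30.1 ± 17.7 CPM (SD, n = 3). Even the lowest WT library, replicate 3, lay well above the highest KO library, and the log2 fold change was -4.12 ± 0.47 (SE, adjusted p = 3.5e-04). MSX2 (ENSG00000120149.9, chromosome 5, 174724582 to 174730896), a homeobox gene that responds to BMP signalling, gave 15.4, 13.9 and 15.7 CPM in KO and 39.2, 44.8 and 49.1 CPM in WT, a log2 fold change of -1.57 ± 0.26 (SE, adjusted p = 0.00740). The call of MSX2 was lost without KO replicate 1 (adjusted p = 0.0504) or KO replicate 2 (adjusted p = 0.0728).

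MYC, the transcription factor of growth and ribosome production whose protein is a classical FBXW7 substrate, was the most abundant of the 16 genes in each of the 6 libraries. Its mRNA gave 156, 146 and 111 CPM in KO and 279, 321 and 387 CPM in WT under OXPT. The highest KO library lay below the lowest WT library. The log2 fold change was -1.26 ± 0.21 (SE, adjusted p = 0.00782), a 2.39-fold lower level in KO. MYC was not called between KO with esiHDAC4 and WT OXPT, as given below. MYC lost its call without KO replicate 3 (adjusted p = 0.0807) or WT replicate 3 (adjusted p = 0.0552). mRNAs of other FBXW7 substrates did not pass the test. CCNE1 had 60.0, 76.2 and 49.8 CPM in KO and 62.9, 72.7 and 78.7 CPM in WT, with a log2 fold change of -0.20 (adjusted p = 1.00). For JUN it was -0.70 ± 0.55 (SE, adjusted p = 1.00) and for MCL1 -0.17 ± 0.20 (SE, adjusted p = 1.00). Both had overlapping groups, and without replicate 3 of every group the log2 fold changes of CCNE1, JUN and MCL1 were no longer below 0. GATA2, a further substrate, had 18.1, 16.1 and 18.3 CPM in KO and 22.9, 24.5 and 43.4 CPM in WT and a log2 fold change of -0.79 (adjusted p = 0.683).

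Of the genes for surface proteins, 3 kept their call without each of the 6 libraries in turn. DPEP1 (ENSG00000015413.10, chromosome 16, 89613308 to 89638456), a membrane dipeptidase that takes part in glutathione breakdown, gave 0.932, 1.66 and 0.714 CPM in KO and 5.41, 22.8 and 20.03 CPM in WT. Here WT replicate 1 was the lowest WT library and still lay above all KO libraries, and the log2 fold change was -3.83 ± 0.56 (SE, adjusted p = 0.00295). PODXL2 (ENSG00000114631.11, chromosome 3, 127629185 to 127672802), a sialomucin of the CD34 family, gave 1.03, 1.08 and 1.55 CPM in KO and 6.70, 7.51 and 11.6 CPM in WT, with a log2 fold change of -2.84 ± 0.42 (SE, adjusted p = 0.00295). HTR7 (ENSG00000148680.16, chromosome 10, 90740823 to 90858039), a serotonin receptor coupled to G proteins, gave 8.34, 4.12 and 3.33 CPM in KO and 17.9, 18.4 and 23.5 CPM in WT. The difference was 3.72-fold, with a log2 fold change of -1.90 ± 0.29 (SE, adjusted p = 0.00295).

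Both transporters were lower in KO. SLC2A3 (ENSG00000059804.16, chromosome 12, 7919230 to 8019007) encodes the glucose transporter GLUT3 and gave 7.85, 5.06 and 18 CPM in KO against 84.4, 57.7 and 47.7 CPM in WT. KO replicate 3 was the highest KO library, and the log2 fold change was -2.64 ± 0.50 (SE, adjusted p = 0.0324). SLC2A14 is a near-identical copy of this gene, and reads that map to more than 1 place are left out of STAR's gene counts, so the value of SLC2A3 is uncertain to that extent. SLC43A3 (ENSG00000134802.18, chromosome 11, 57406954 to 57427580), a transporter of purine nucleobases, gave 2.31, 2.89 and 3.21 CPM in KO and 11.4, 11.7 and 14.1 CPM in WT, with a log2 fold change of -2.16 ± 0.40 (SE, adjusted p = 0.0251). The call of SLC2A3 was lost without KO replicate 1 (adjusted p = 0.201), KO replicate 2 (0.294), WT replicate 1 (0.156) or WT replicate 2 (0.0686). That of SLC43A3 was lost when any 1 of the 6 libraries was left out, with adjusted p of 0.0652 to 0.183.

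VASP (ENSG00000125753.15, chromosome 19, 45506579 to 45526989), which promotes the elongation of actin filaments, ranked after MYC in abundance among the called genes of WT cells. It gave 25.3, 31.9 and 30.5 CPM in KO and 154, 234 and 340.1 CPM in WT, that is 29.2 ± 3.49 against 243 ± 93.1 CPM (SD, n = 3). The KO libraries lay close together, WT replicate 3 was the highest, and the log2 fold change was -3.06 ± 0.40 (SE, adjusted p = 0.00127). KRT13 (ENSG00000171401.15, chromosome 17, 41500981 to 41505705), a keratin of stratified epithelia, gave 1.23, 0.723 and 1.55 CPM in KO and 5.73, 4.42 and 6.29 CPM in WT, with a log2 fold change of -2.25 ± 0.40 (SE, adjusted p = 0.0184). FABP6 (ENSG00000170231.16, chromosome 5, 160187367 to 160238735), the bile acid binding protein of ileal enterocytes, gave 1.81, 1.59 and 2.98 CPM in KO and 12.9, 5.83 and 15.5 CPM in WT, with a log2 fold change of -2.45 ± 0.46 (SE, adjusted p = 0.0251). These were counts of 10 to 37 per KO library. The calls of KRT13 and FABP6 were lost without KO replicate 1 (adjusted p = 0.135 and 0.180), KO replicate 2 (0.232 and 0.248), WT replicate 1 (0.0658 and 0.109) or WT replicate 3 (0.0864 and 0.162).

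For 2 genes hardly any read was found in KO. ANXA10 (ENSG00000109511.12, chromosome 4, 168092537 to 168187736) encodes an annexin of gastric epithelium. It had 2, 1 and 2 counts in the KO libraries and 55, 113 and 102 counts in the WT libraries. The ratio of the summed counts, corrected for library size, was 48.9 for WT over KO, with a 95% exact (Clopper-Pearson) interval of 20.7 to 152 that covers counting error only, and the log2 fold change of the fit was -5.55 ± 0.75 (SE, adjusted p = 0.00146). APOBEC3G (ENSG00000239713.9, chromosome 22, 39077067 to 39087743), a cytidine deaminase that restricts retroviruses, had 3, 1 and 0 counts in KO and 82, 35 and 52 counts in WT. The ratio was 38.2, with an interval of 14.7 to 142, and the log2 fold change of the fit was -5.16 ± 0.78 (SE, adjusted p = 0.00295). APOBEC3G belongs to a family of similar genes in tandem, among which reads can be ambiguous. In the opposite direction, SPATC1L (ENSG00000160284.15, chromosome 21, 46161148 to 46184476), which encodes a speriolin-like protein, had 38, 22 and 40 counts in KO and 7, 4 and 4 in WT. That is 1.86, 1.59 and 4.76 CPM against 0.378, 0.268 and 0.292 CPM, highest in KO replicate 3, with a log2 fold change of 3.03 ± 0.46 (SE, adjusted p = 0.00295).

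**Figure D2:**
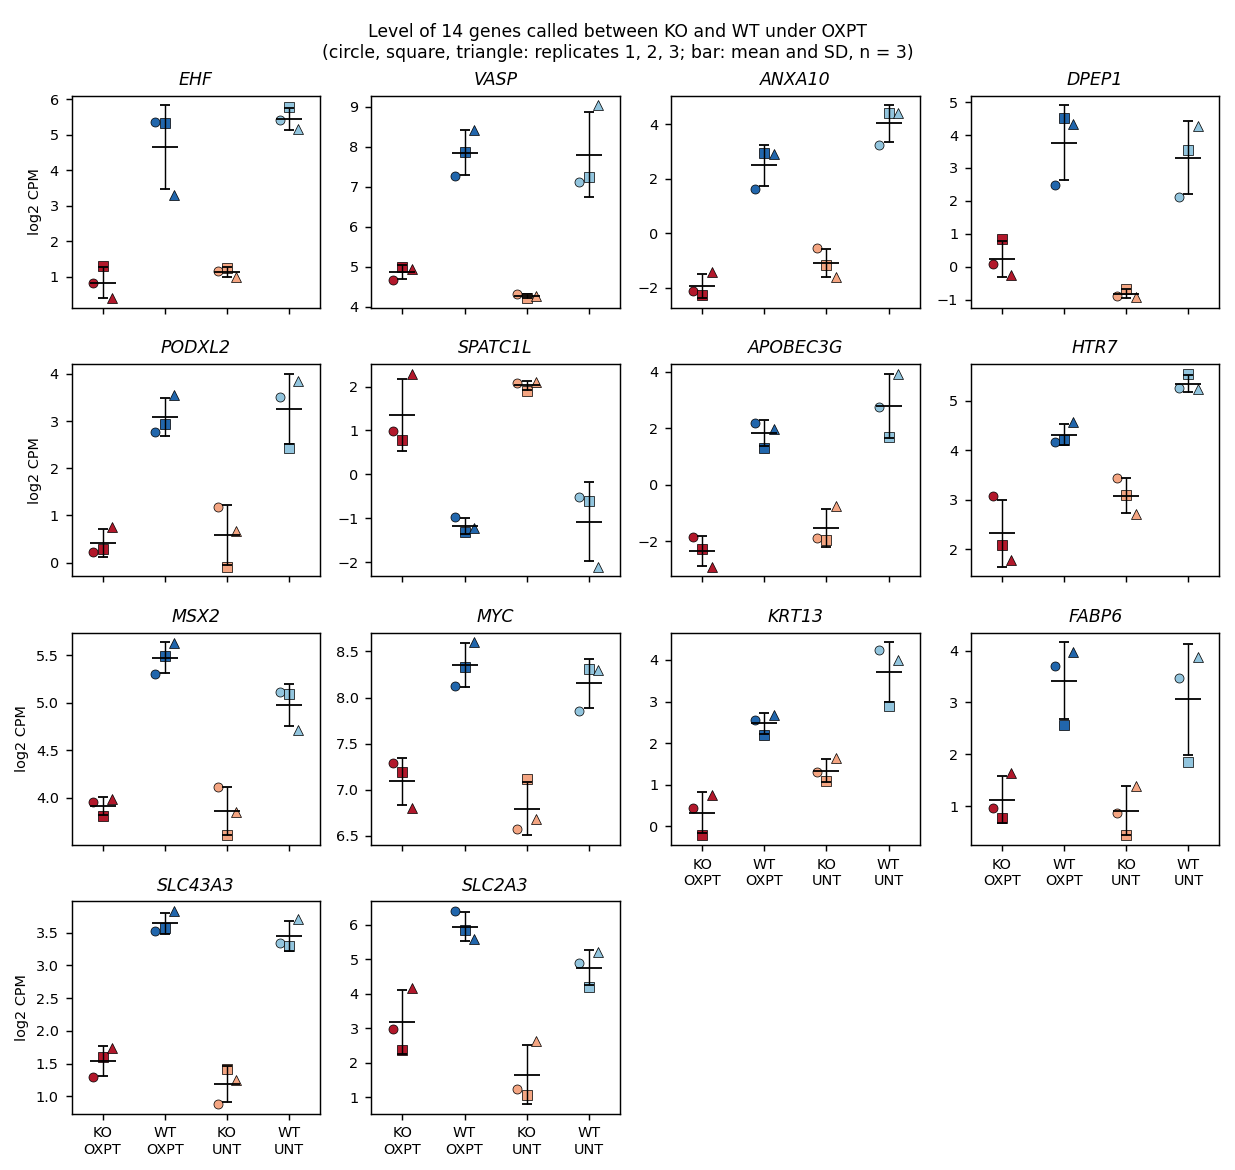
Each panel shows 1 called gene, 14 in all, with the log2 CPM (prior count of 2) of each library on the vertical axis and the groups KO esiCT OXPT, WT OXPT, KO esiCT UNT and WT UNT from left to right. Circles, squares and triangles are replicates 1, 2 and 3, and bars are the mean and SD of 3 libraries. In every panel the KO and the WT libraries with OXPT are separated, and so are those without OXPT.

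The calls depended on the other groups of the model, which share its estimate of the spread. When the 6 libraries were fitted on their own, edgeR called 0 genes, with 184 at an unadjusted p under 0.05, and the 14 of the 16 genes that were still tested kept their direction. With the replicate number as a block in the full model, 21 genes were called, 2 higher and 19 lower, and all 16 were among them. DESeq2 on all 24 libraries called 30 genes and included all 16. Without KO esiCT OXPT replicate 2, the count fell to 9. When replicate 3 was left out of all 8 groups of the model, 34 genes were called, 1 higher and 33 lower, and 14 of the 16 were among them. KRT13 (adjusted p = 0.108) and FABP6 (adjusted p = 0.0676) were not. Named after their values were seen, the genes called in this fit included S100A14 (log2 fold change -1.29, adjusted p = 0.0058), ELF3 (-1.09, adjusted p = 0.0388), an ETS factor of epithelia like EHF, and CLDN4 (-0.97, adjusted p = 0.0388), a claudin of tight junctions, all lower in KO. The 8 genes that were called without each of the 6 libraries in turn were EHF, VASP, ANXA10, DPEP1, PODXL2, SPATC1L, APOBEC3G and HTR7.

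The same genotypes were then compared in untreated libraries, which share no library with those under OXPT. Both comparisons come from the same model and share its estimate of the spread, so their calls are not independent of each other. The esiRNA of the untreated WT libraries is unsettled in the same way as that of the treated ones. There 34 genes were called (0.275%), SPATC1L higher (0.0081%) and 33 lower (0.267%), with 708 at an unadjusted p under 0.05. Of the 16 genes called under OXPT, 14 were also called in untreated cells, all in the same direction, which is 87.5% of the genes called under OXPT and 41.2% of those called in untreated cells. EHF gave 2.12, 2.23 and 1.85 CPM in untreated KO and 42.8, 54.8 and 35.8 CPM in untreated WT, with a log2 fold change of -4.42 (adjusted p = 6.2e-05) beside -4.12 under OXPT. VASP gave 19.9, 18.5 and 19.3 CPM and 139.8, 152 and 524 CPM, with -3.82 (adjusted p = 6.2e-05) beside -3.06. For MYC the untreated values were 94.9, 139 and 103 CPM in KO and 231, 317 and 315 CPM in WT, with -1.36 (adjusted p = 0.00236) beside -1.26. The unadjusted p of the interaction of genotype with OXPT was 0.621 for EHF, 0.160 for VASP and 0.730 for MYC, with an adjusted p of 1.00 for each. With the replicate number as a block, 74 genes were called in untreated cells, 4 higher and 70 lower. That count also rose without WT UNT replicate 1 (85) or 2 (87) and fell without KO esiCT UNT replicate 1 (15) or 2 (13) or WT UNT replicate 3 (19).

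MSX2 was called under OXPT but not in untreated cells, where 2 of the 16 genes missed the threshold. In untreated cells MSX2 gave 17.1, 12 and 14.3 CPM in KO and 34.5, 34.1 and 26.2 CPM in WT, with a log2 fold change of -1.12 (adjusted p = 0.0726). In all 16 genes the untreated KO and WT libraries did not overlap, a separation found in untreated cells for 792 of all genes tested, or 6.41%. Whether the genotype difference itself depended on OXPT was asked with an interaction term, for which edgeR called 0 genes (0%) and DESeq2 0. In edgeR 201 genes had an unadjusted p under 0.05, the log2 fold change being higher under OXPT in 150 and lower in 51. For MSX2 the unadjusted interaction p was 0.231 (adjusted p = 1.00).

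Of the 34 genes called in untreated cells, all had the same sign under OXPT, and the 20 not called under OXPT were lower in KO in both conditions. The examples here were chosen after their values were seen. PALLD, an actin-associated protein, had log2 fold changes of -1.53 under OXPT (adjusted p = 0.0589, or -1.52 with an adjusted p of 0.0463 and thus called with the replicate number as a block) and -2.08 untreated (adjusted p = 0.00209). RUNX2, a transcription factor of the Runt family, had -2.08 (adjusted p = 0.0605) and -2.43 (adjusted p = 0.00938). GRHL3, an epithelial transcription factor of the grainyhead family, had -1.15 (adjusted p = 0.704) and -3.23 (adjusted p = 4.9e-04), and DUSP5, a phosphatase induced by ERK signalling, had -0.65 (adjusted p = 0.979) and -2.17 (adjusted p = 0.0337). The fitted differences of GRHL3 and DUSP5 were smaller under OXPT, with unadjusted interaction p of 0.00122 and 0.0199 and an adjusted p of 1.00 each. Across all 12353 genes, the log2 fold changes with and without OXPT gave r = 0.476 (Pearson) and rho = 0.307 (Spearman), and the sign was shared by 59.5% of the genes. These are descriptions across genes, which are not independent replicates, and KO and WT cells of the same lines enter both comparisons.

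**Figure D3:**
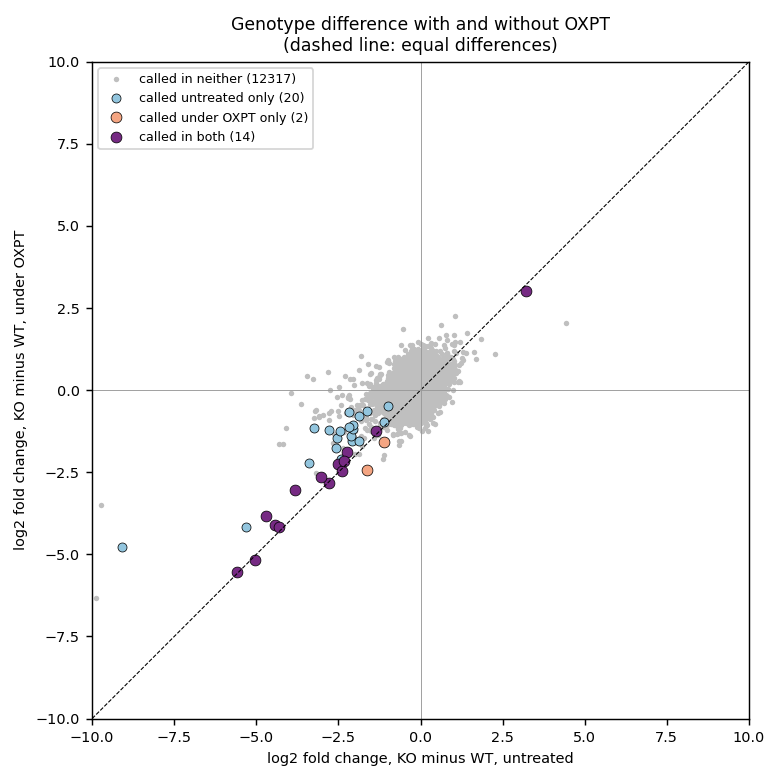
Each point is 1 gene, with the log2 fold change of KO over WT in untreated cells on the horizontal axis and under OXPT on the vertical axis, and the dashed line marks equal differences. The 14 genes called in both conditions lie near that line, from ANXA10 at the lower left to SPATC1L at the upper right, and the 20 genes called in untreated cells only all lie below 0 on both axes.

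KO cells with esiHDAC4 or with #11 were also set beside WT OXPT. These comparisons share the WT OXPT libraries with the main comparison, so their values are given side by side and carry no independent support. They called 28 (0.227%) and 140 (1.13%) genes. VASP had log2 fold changes of -3.06 with esiCT, -3.0 with esiHDAC4 and -3.16 with #11. In the same order, EHF had -4.12, -4.40 and -3.45, and SPATC1L had 3.03, 3.07 and 3.90. In KO esiHDAC4 MYC gave 226, 192 and 201 CPM, with a log2 fold change of -0.67 that did not pass the test (adjusted p = 0.354), while in KO #11 it was -1.36 (adjusted p = 0.00441). SLC2A3 gave 25.1, 17.4 and 49.9 CPM in KO esiHDAC4, with a log2 fold change of -1.04 (adjusted p = 0.829), and -3.0 (adjusted p = 0.00800) in KO #11. FABP6 was not called in KO #11, with -1.24 (adjusted p = 0.184). The remaining 13 genes were called in all 3 comparisons with WT OXPT. Differences between the KO groups were not tested here. The treatment entry of the WT libraries gives esiHDAC4. If that entry holds, KO esiHDAC4 is the group matched to them in esiRNA, and MYC and SLC2A3 were not called against it.

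**Figure D4:**
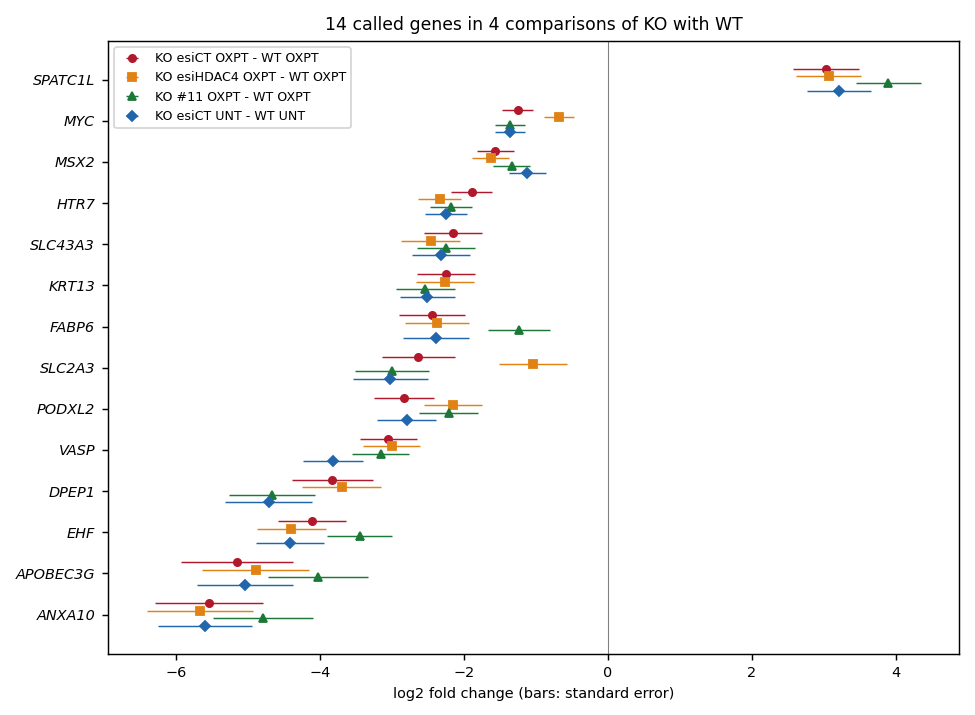
The log2 fold changes of 14 called genes are shown with their standard errors in 4 comparisons, KO esiCT, KO esiHDAC4 and KO #11 against the same 3 WT OXPT libraries, and KO esiCT UNT against WT UNT. In all 4 comparisons SPATC1L lies above 0 and the other genes below, with MYC and SLC2A3 closest to 0 in KO esiHDAC4 (log2 fold changes of -0.67 and -1.04).

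Beyond the called genes, 30 gene lists were examined by the number of their members that were called and by their median log2 fold change, beside 0.05 for all genes tested. Of all 12353 genes tested, 0.13% were called. Before adjustment (p under 0.05 in edgeR's test), 319 of them were higher and 347 lower in KO. With 1 of the 6 libraries left out, most of these medians moved by more than 1.5 times or changed sign, so the lowest and highest median over these 6 fits are given in parentheses. Of 36 listed FBXW7 substrates, 33 were tested and 1 (MYC) was called, with a median of -0.20 (-0.35 without WT replicate 1 to -0.07 without WT replicate 3) that came to 0.00 with replicate 3 of all groups left out. The call of MYC was lost without KO or WT replicate 3, as given above. Partners of FBXW7 in the ligase and its regulators had no called member among 18, with a median of 0.16 (0.03 without KO replicate 3 to 0.24 without KO replicate 1), and SKP1, the adaptor that binds the F-box, had a log2 fold change of 0.67 (adjusted p = 0.833). In the list of the MYC network and ribosome biogenesis, MYC was the only called member of 47, and the median was -0.06 (-0.15 without KO replicate 2 to -0.03 without KO replicate 1). CDK4, a MYC target of the cell cycle, had -0.64 (adjusted p = 0.741). Among 25 Wnt targets MYC was again the only called member, and BAMBI, a decoy receptor of the TGF-beta pathway, had -0.65 (adjusted p = 0.876). None of 30 Notch pathway genes was called or had an unadjusted p under 0.05, with a median of -0.01 (-0.15 without KO replicate 3 to 0.01 without WT replicate 3), and LFNG, a glycosyltransferase of Notch receptors, had -0.44 (adjusted p = 0.983).

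Lists of the response to platinum damage held no called gene, beside 0.13% of all genes tested. Over all 12353 genes, 319 were higher and 347 lower before adjustment (p under 0.05 in edgeR's test). Of 57 p53 targets tested, 2 were higher and 1 lower before adjustment (p under 0.05), with a median log2 fold change of 0.02 (-0.14 without KO replicate 3 to 0.06 without WT replicate 3). CDKN1A, the cyclin-dependent kinase inhibitor p21, gave 2879, 2543 and 3753 CPM in KO and 3099.7, 3121 and 4821 CPM in WT under OXPT, with -0.27 (adjusted p = 1.00), and MDM2 had 0.46 (adjusted p = 1.00). Both had overlapping groups. PRDM1, a repressor of transcription, had -1.21 (adjusted p = 0.730) and was called in untreated cells (-2.77, adjusted p = 0.00861). Genes of homologous recombination and the Fanconi pathway had a median of 0.24 over 62 members (0.08 without WT replicate 3 to 0.41 without KO replicate 3). Genes of the BCL2 family and caspases had a median of -0.01 over 42 members (-0.22 without KO replicate 3 to 0.05 without KO replicate 2), and XIAP, an inhibitor of caspases, had 0.80 (adjusted p = 0.704). For 38 genes of platinum transport and detoxification the median was 0.14 (-0.11 without KO replicate 3 to 0.31 without KO replicate 2). MT1X, a metallothionein, gave 15.7, 13.7 and 108 CPM in KO and 17.7, 11.9 and 23.1 CPM in WT, with a log2 fold change of 1.38 (adjusted p = 0.956) that was -0.26 without KO replicate 3.

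The lists of the cell cycle, oxidative phosphorylation, cytosolic ribosomal proteins and mitochondrial mRNAs likewise held no called gene, beside 0.13% of all genes tested. Before adjustment (p under 0.05 in edgeR's test), 319 of the 12353 genes were higher and 347 lower in KO. The median was 0.03 for 52 genes of cyclin E, E2F and DNA replication (-0.04 without KO replicate 2 to 0.16 without KO replicate 3). It was 0.23 for 45 genes of G2 and mitosis (0.08 without KO replicate 1 to 0.32 without KO replicate 3). The highest median of the 30 lists was that of oxidative phosphorylation, 0.31 over 75 nuclear genes, of which 5 were higher and 0 lower before adjustment (p under 0.05). Its range was -0.17 without KO replicate 3 to 0.55 without KO replicate 1. That of 75 cytosolic ribosomal protein genes was 0.23 (-0.34 without KO replicate 3 to 0.49 without KO replicate 1), and KO replicate 3, without which both medians turned negative, is the library with the most unmapped reads. The part of the unmapped reads in these medians was not tested. RPS29, for instance, gave 495, 552 and 2221 CPM in KO and 568, 549 and 765 CPM in WT. The 13 mRNAs of the mitochondrial genome had a median of -0.11 (-0.42 without WT replicate 3 to 0.03 without WT replicate 1), or -0.40 with replicate 3 of all groups left out, a fit in which MT-CO1 was called lower (log2 fold change -0.86, adjusted p = 0.0443). MT-ND1 had -0.46 (adjusted p = 0.889).

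In the lists of signalling, cell identity and metabolism, EHF and SLC2A3 were called beside MYC. Before adjustment (p under 0.05 in edgeR's test), 319 of all 12353 genes tested were higher and 347 lower in KO. The lowest median was that of AP-1 and immediate early genes, -0.36 over 28 members with 3 lower and 0 higher before adjustment (p under 0.05), and its range was -0.58 without WT replicate 1 to -0.03 without WT replicate 3. FOSL2, an AP-1 subunit, had -0.82 (adjusted p = 0.765), and NR4A1, an immediate early nuclear receptor, had -1.15 (adjusted p = 0.678). The intestinal and epithelial identity list had a median of -0.27 over 27 members, with 1 called (EHF) and 6 lower and 0 higher before adjustment (p under 0.05). Its range was -0.41 without KO replicate 1 to -0.22 without WT replicate 2. HNF4A, a nuclear receptor of intestinal epithelium, gave 6.08, 6.79 and 5.24 CPM in KO and 7.24, 11.0 and 16.2 CPM in WT, with a log2 fold change of -0.92 (adjusted p = 0.678). In glycolysis and hypoxia, with SLC2A3 as the only called member of 41, the median was -0.23 (-0.64 without KO replicate 3 to -0.08 without KO replicate 2), and before adjustment 4 members were lower and 1 higher (p under 0.05). The higher one was LDHB, a lactate dehydrogenase subunit named after its value was seen, with 1.03 (adjusted p = 0.704). NDRG1, a gene induced by hypoxia, gave 229, 150.3 and 96.7 CPM in KO and 382, 637 and 871 CPM in WT. Its log2 fold change of -1.99 did not pass (adjusted p = 0.399). OASL, an interferon-stimulated gene, had 4.86, 7.37 and 8.81 CPM in KO and 18.1, 25.5 and 36.3 CPM in WT and a log2 fold change of -1.93 (adjusted p = 0.320), and it was called by DESeq2 (adjusted p = 0.0433) and with the replicate number as a block (adjusted p = 0.00176). No other member of 36 tested interferon-stimulated genes was called in these fits, and their median was 0.08 (-0.14 without KO replicate 3 to 0.13 without KO replicate 2). PSMB9, a proteasome subunit induced by interferon and likewise named afterwards, had 0.92 (adjusted p = 0.916). The lists of ERK feedback, mesenchymal, integrated stress response, cholesterol, NF-kB, cancer-testis and HOX genes held no called member, and their medians ran from -0.18 (NF-kB) to 0.17 (HOX). With 1 library left out, that of NF-kB was -0.34 without KO replicate 3 to 0.09 without WT replicate 3 and that of HOX -0.01 without KO replicate 3 to 0.24 without WT replicate 3.

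The study relates class IIa HDACs to super-enhancers, large enhancer clusters, and lists genes near 2 groups of them. The lists come from its ChIP-seq of H3K27ac, a mark of active enhancers, in OXPT-treated KO cells with and without HDAC4 silencing, which was not analysed here. The super-enhancers were also defined by H3K4me1, a further enhancer mark, and genes were assigned to them within domains of chromatin contact. The lists may also have been chosen with these RNA-seq libraries. Over all 12353 genes tested, 0.13% were called, and before adjustment (p under 0.05 in edgeR's test) 319 were higher and 347 lower. Of 62 tested genes of group 1, ANXA10 was called, and 6 were lower and 0 higher before adjustment (p under 0.05). The median was -0.03 (-0.16 without WT replicate 3 to 0.03 without WT replicate 1). PRF1, which encodes perforin, had -0.93 (adjusted p = 0.678). Of 24 genes of group 2 none was called, with 2 higher and 2 lower before adjustment (p under 0.05) and a median of 0.09 (-0.10 without WT replicate 3 to 0.21 without WT replicate 2). Among class IIa HDACs and their partners none of 30 was called, with a median of -0.11 (-0.15 without KO replicate 1 to -0.08 without KO replicate 2), and SIK1, a kinase that phosphorylates class IIa HDACs, had -0.93 (adjusted p = 0.336).

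**Figure D5:**
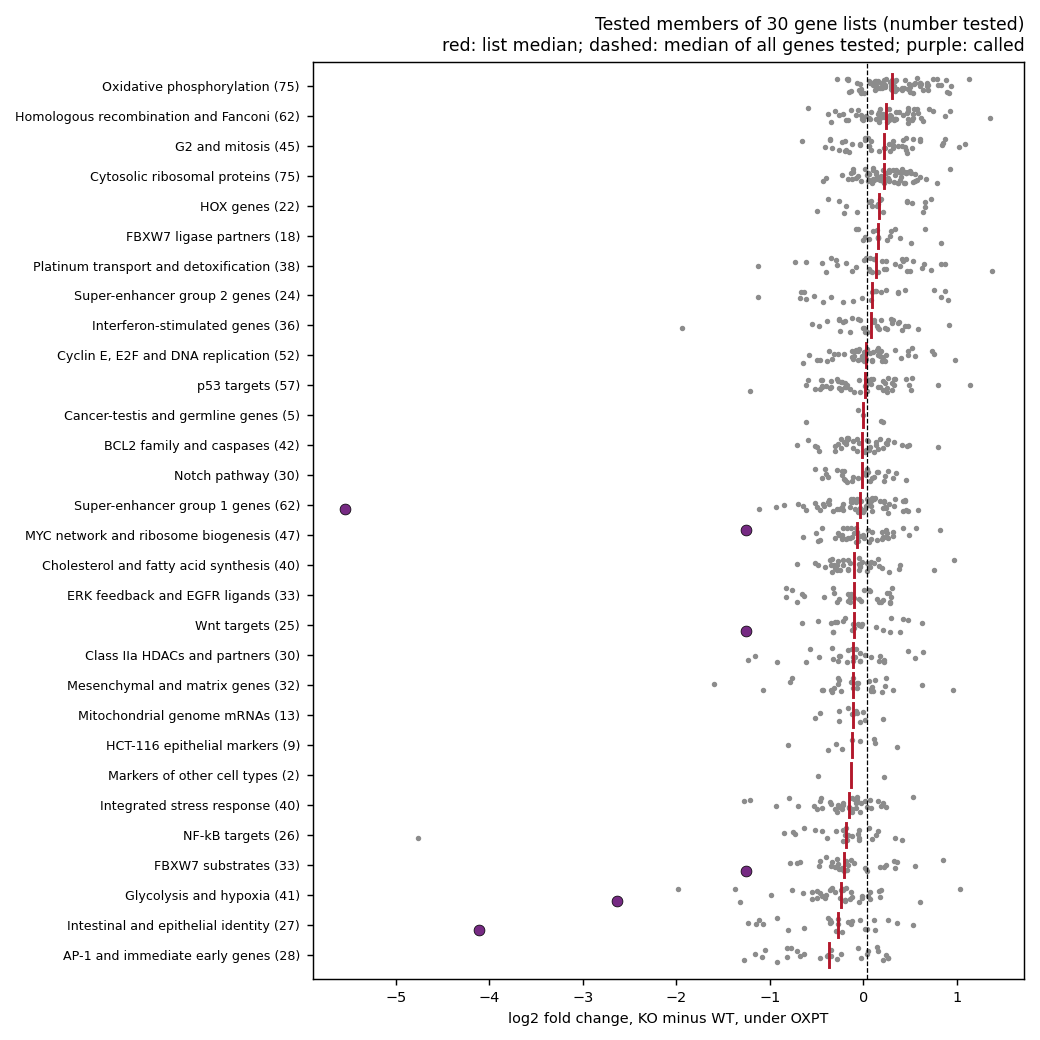
Each dot is a tested member of 1 of 30 gene lists, with its log2 fold change of KO over WT under OXPT on the horizontal axis, and the number tested stands beside the list name. Red bars are list medians, the dashed line is the median of all genes tested, and purple dots are called genes. The medians lie between -0.36 and 0.31, and the called members are MYC in 3 lists, EHF, SLC2A3 and ANXA10.

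Among genes higher in KO, those next in p after SPATC1L did not pass the test. KCNK9, a potassium channel, gave 7.26, 5.71 and 15.8 CPM in KO and 3.14, 2.28 and 3.51 CPM in WT, with a log2 fold change of 1.67 (adjusted p = 0.111). It was called by DESeq2 (adjusted p = 0.00334) and with the replicate number as a block (adjusted p = 0.00517). NFIB, a transcription factor of the nuclear factor I family, gave 7.85, 13.4 and 16.8 CPM in KO and 5.24, 5.16 and 1.32 CPM in WT, with 1.68 (adjusted p = 0.215). MAT1A, a methionine adenosyltransferase, had 1.74 (adjusted p = 0.399), and MYO7A, an unconventional myosin, had 1.06 (adjusted p = 0.399). PSIP1, a chromatin reader, gave 109, 111 and 283 CPM in KO and 104, 86.5 and 57.1 CPM in WT and so was highest in KO replicate 3. The same library was the highest for TDG, a DNA glycosylase, with 55.0, 64 and 113 CPM in KO against 51.4, 49.8 and 31.8 CPM in WT.

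By position, the 16 called genes lay on 13 chromosomes, with no more than 2 on any of them. Median log2 fold changes per chromosome ranged from -0.09, for the mitochondrial genome, to 0.12, for chromosome 13. Annotated genes that overlap a called gene held a mean of at most 9.5 counts in the 6 libraries and were not tested. Reads in a stretch shared by both genes count as ambiguous and for neither, so these counts do not show how many such reads there were.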

How the data were processed

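Total RNA of HCT-116 cells was sequenced as polyA libraries. The authors' deposited files hold STAR read counts per gene, 1 file per library, with an unstranded and 2 stranded columns. The submitters' processing notes name Trimmomatic 0.39, STAR 2.7.11a and hg38, and the gene annotation behind these counts was not given in the sources used here, since the annotation named in the study's methods belongs to a quantification with salmon. Although the labels name a stranded kit, in the 6 libraries the reverse and forward counts differed by a factor of at most 1.02, and reads without a feature made up 2.58% to 5.79% unstranded against 35.7% to 42.9% in the reverse column, so the unstranded counts were used and antisense partners cannot be told apart. The 4 summary rows (unmapped, multimapping, no feature, ambiguous) were left out of library sizes and tests, and reads ambiguous between genes came to 10.9% to 12.2%. Symbols and positions are those of GENCODE 44 (GRCh38), in which 62639 of the gene IDs were found after dropping version numbers (99.8%).

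The 24 libraries with a settled genotype and OXPT state (8 groups of 3) were fitted in 1 edgeR 4.0.16 quasi-likelihood model (R 4.3.3, TMM) with 1 coefficient per group. A mean count of 64 or more in any of the groups was required, which left 12353 of 62757 genes, and 553 genes of chromosome Y were left out. The other groups lend their spread to the comparison. A further 12 WT libraries have labels with opposite OXPT states and entered no comparison. Standard deviations are over 3 libraries, and the 6 libraries compared held 10725966 to 19582737 counts. Alternatives were the strand columns, RLE size factors, DESeq2 1.42.0, other count filters, only the groups compared, the replicate number as a block, and each library left out. A further 2 were added after seeing the data, the block with only the groups compared, and number 3 left out of every group. Deviations from the group means of same-numbered KO and WT libraries correlated with r of 0.531, 0.575 and 0.654 under OXPT and 0.113, 0.472 and 0.446 untreated, while different numbers gave -0.634 to 0.501 and -0.526 to 0.329. With every same-numbered value over 0.1 the numbers were taken as pairing the samples, from the data and not from the labels. However, 1 untreated KO library correlated better with another number. Deviations from a group mean cancel out within the group. With number 3 apart in both groups under OXPT, numbers 1 and 2 therefore tend to correlate across groups in either order. KO 1 with WT 2 gave 0.501 and KO 2 with WT 1 gave 0.403. These values cannot decide whether numbers 1 and 2 are paired. The main model has no term for a pairing by number, which only the settings with the replicate number as a block take into account. The model, with its count filter switched off, was also run on simulated counts. These held no deviation shared between libraries of the same replicate number, and the outcome is not given here.

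Genes named are all called genes, the 10 with the smallest p in each direction, of which a part is printed, genes of the question such as FBXW7 and HDAC4, and up to 2 members with the smallest p per list, again in part. Of the called genes, 2 are not reported here by name. The members, lists and settings were chosen with earlier results of these data known.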

Additional observations from a re-analysis of the deposited data

How the results depend on the processing

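No called gene changed sign under an alternative in which it was tested. Under OXPT, 16 genes were called (1 higher, 15 lower in KO). With reverse-strand counts 9 (0 and 9) were called and with forward-strand counts 14 (0 higher). SPATC1L, the only gene called higher, and APOBEC3G were not tested in either strand column. DESeq2 called 30 (4 and 26), and 84 (19 and 65) were called with no count filter. With a mean of 64 in every group, a filter that removes genes low in any group (SPATC1L among them), 3 (0 and 3) were called. The 2 compared groups alone, where SPATC1L was not tested either, gave 0 (0 and 0). When replicate 3 of all groups was dropped, 34 (1 and 33) were called. With the replicate number as a block 21 (2 and 19) were called with all 16 among them, adding FBLIM1, PALLD, KCNK9, AQP3 and OASL. The block in only the groups compared gave 2 (0 and 2, VASP among them). Leaving out 1 library at a time gave 9 to 15 called, 1 to 2 higher and 8 to 14 lower. In untreated cells the 34 calls (1 and 33) became 23 (0 higher) with reverse-strand counts, 21 (0 and 21) with forward-strand counts, 117 (6 and 111) with DESeq2, 313 (14 and 299) with no count filter, 4 (0 and 4) with a mean of 64 in every group, 1 (0 and 1) with only the groups compared and 74 (4 and 70) with the block, and ranged from 13 to 87, 1 to 4 higher and 12 to 85 lower, without 1 library. The interaction had 24 calls, all positive, with no count filter and 0 under each other setting. RLE size factors left 16 and 35 calls. The filter and the number of libraries change what is tested, and the cause of the other differences was not tested.

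Among genes that were not called, HDAC7 turned from -0.03 to 0.0659 (log2) with reverse-strand counts, 0.0014 with RLE, 0.0035 with DESeq2, 0.0216 with only the compared groups and 0.28 without number 3, and ACTA2 to 0.11 with reverse-strand counts. With replicate 3 of all groups dropped, CCNE1 came to 0.0027, JUN to 0.18, MCL1 to 0.00383, NEDD8 to -0.14, MT1X to -0.00847, RPS15A to -0.13, RPS29 to -0.10, MAGED1 to -0.0400 and CDX2 to 0.0306. Without 1 library at a time the ranges were -0.28 to 0.17 for HDAC7, -0.0213 to 0.80 for MDM2, -0.35 to 0.0884 for MCL1, -0.31 to 1.23 for NEDD8, -0.26 to 1.81 for MT1X, -0.14 to 1.38 for EBP, -0.28 to 1.33 for RPS15A, -0.27 to 1.14 for RPS29, -0.56 to 0.0363 for CDX2 and -0.18 to 0.42 for COL1A1. With 3 libraries a group and counts of 0 to 3 in KO for ANXA10 and APOBEC3G, the depth limits how low these levels can be placed.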

Other observations

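The 12 WT libraries whose labels give opposite OXPT states entered no comparison, and their levels of the called genes are given as values only. They are the libraries with #11 or esiHDAC4 in their titles. VASP ranged over 123 to 500.3 CPM (median 247), MYC over 238 to 564 CPM (median 355) and EHF over 8.58 to 75.5 CPM (median 25.6). Among surface and transport genes, SLC2A3 was at 17.1 to 252 CPM (median 54.4). DPEP1 was at 4.73 to 29.4 CPM (median 18.9), PODXL2 at 7.16 to 39.0 CPM (median 18.3), HTR7 at 15.4 to 67.8 CPM (median 22.7) and SLC43A3 at 4.98 to 16.9 CPM (median 10.9). The genes with hardly any read in KO were both detected, ANXA10 at 2.91 to 23.4 CPM (median 8.64) and APOBEC3G at 3.75 to 15.5 CPM (median 7.04). The transcription factor MSX2 was at 24.8 to 60.3 CPM (median 37.7), and KRT13 and FABP6 at 3.98 to 16.8 CPM (median 6.24) and 5.11 to 24.3 CPM (median 14.5). SPATC1L was at 0.231 to 0.848 CPM (median 0.611).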
